A study of Mus musculus with 20 samples.

Results

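Epidermis of old wild-type (WT) mice was set against epidermis of young WT mice, across all genes of the deposited count table. The comparison rests on 5 of the 20 libraries of the series: 2 from old WT mice of 400 days or more and 3 from young WT mice of 100 to 120 days, per the labels. In both groups, tdTomato-positive cells were sorted from dissociated skin epidermis, and 5 ng of RNA per sample entered bulk RNA sequencing. The study as a whole concerns cutaneous squamous cell carcinoma in mice with the K14cre transgene, which expresses Cre recombinase under a keratin 14 promoter, and floxed Wwox and Trp53 (p53) alleles. The labels give the genotype of both groups as WT and do not say which Cre or reporter alleles these mice carry, nor their strain or sex. The other 9 epidermis libraries, all young, were deleted for Wwox, for Trp53 or for both (3 each). They entered the fit for their spread, and their levels are given as a description. In 3 of these 9 the targeted Trp53, and in 1 of those 3 also Wwox, lay above the level its label implies. The remaining 6 libraries, from carcinomas, were left out.

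The epidermis renews itself from a basal layer that holds to the basement membrane through integrins and laminins. Cells that leave this layer switch keratins, strengthen their desmosomes and tight junctions, and release lipids that seal the barrier. Hair follicles and sebaceous glands are continuous with it, and melanocytes, Langerhans cells and T cells live within it. Keratinocytes also run a circadian clock, a loop of transcription factors that repress and activate each other's genes over the day.

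Of 51123 genes in the table, 17622 passed the filter on low counts. The libraries were of similar depth. Total counts were 12863082 and 12600587 in old WT, against 14608993, 12842557 and 16627171 in young WT. Levels are CPM, counts scaled to a common library size. Across the tested genes, log2 CPM of the old libraries correlated with each other at 0.87, against 0.93 to 0.98 among the young libraries. Between ages the correlation ran from 0.78 to 0.89.

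The libraries differed in makeup as well as in age. Xist, which silences 1 X chromosome in female cells, stood at 1140 and 752 CPM in old WT, against 0.22, 417 and 360 CPM in young WT. The Y-linked Eif2s3y had no counts in old WT, against 25.4, 1.83 and 0.0565 CPM in young WT, so Y-linked RNA was highest in young 1, where Xist was near 0. The part of sex in the differences below was not tested. The milk protein genes, a list added after the data were seen, summed to 189 CPM in old 1 and 25500 CPM in old 2, against 0.551, 1.56 and 23.6 CPM in young WT. The casein gene Csn2 alone stood at 43.7 and 8370 CPM in old WT, against 0.0551, 0 and 0.169 CPM in young WT. Milk protein RNA was thus plentiful in old 2, far lower in old 1 and lowest in young WT. In the 9 young knockout libraries the list summed to 1.65 to 1540 CPM.

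Keratinocyte identity was present in every library. Krt5, a keratin of the basal layer, stood at 2610 and 733 CPM in old WT, against 499, 589 and 856 CPM in young WT. Krt14, its partner, stood at 1810 and 504 CPM in old WT, against 391, 481 and 526 CPM in young WT. Old 1 was high and old 2 lay among the young libraries for both, and neither gene passed the test (adjusted p = 0.222 and 0.236). In the 9 young knockout libraries Krt5 had a median of 3510 CPM. The genes deleted in the wider study were also set against each other between the ages, which does not by itself check the WT label. Wwox had 11.1 and 16.9 CPM in old WT, against 10.1, 9.24 and 8.75 CPM in young WT, and Trp53 had 35 and 25.3 CPM in old WT, against 31, 32.5 and 40.1 CPM in young WT. Neither passed the test (adjusted p = 0.703 and 0.908).

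Markers of other cell types were present although the sort was for tdTomato. The 34 tested markers of T, NK and dendritic epidermal T cells summed to 256 and 630 CPM in old WT, against 4260, 3140 and 3240 CPM in young WT. All 34 were lower in both old libraries than in every young library, as were 21.4% of all tested genes. The young knockouts spanned 97 to 6420 CPM for this sum, with a median of 471 CPM. Fibroblast markers summed to 200 and 883 CPM in old WT, against 2220, 1110 and 2090 CPM in young WT. Melanocyte and Schwann cell markers summed to 180 and 457 CPM in old WT, against 770, 567 and 750 CPM in young WT. Erythrocyte markers, led by the globin genes, summed to 38 and 155 CPM in old WT, against 1240, 3580 and 870 CPM in young WT. In the young knockouts fibroblast markers had a median sum of 278 CPM (57.1 to 3600). Melanocyte and Schwann cell markers had one of 195 CPM (134 to 285) and erythrocyte markers one of 33.9 CPM (25.1 to 266). The fibroblast and melanocyte medians lay between both old libraries, and the erythrocyte median below them. Other cell type sums were not lower in both old libraries. Merkel cell markers summed to 116 and 620 CPM in old WT, against 8.93, 23.8 and 38.4 CPM in young WT. Endothelial and mural cell markers summed to 252 and 624 CPM, against 246, 187 and 225 CPM. Langerhans and dendritic cell markers overlapped, at 291 and 5150 CPM against 2520, 843 and 1220 CPM. B and plasma cell markers summed to 328 and 338 CPM, against 203, 215 and 212 CPM, though 9 of 13 had a negative sign. In bulk RNA, fewer cells of a type and less RNA per cell cannot be told apart. The part of this makeup in the differences below was not tested.

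**Figure D1:**
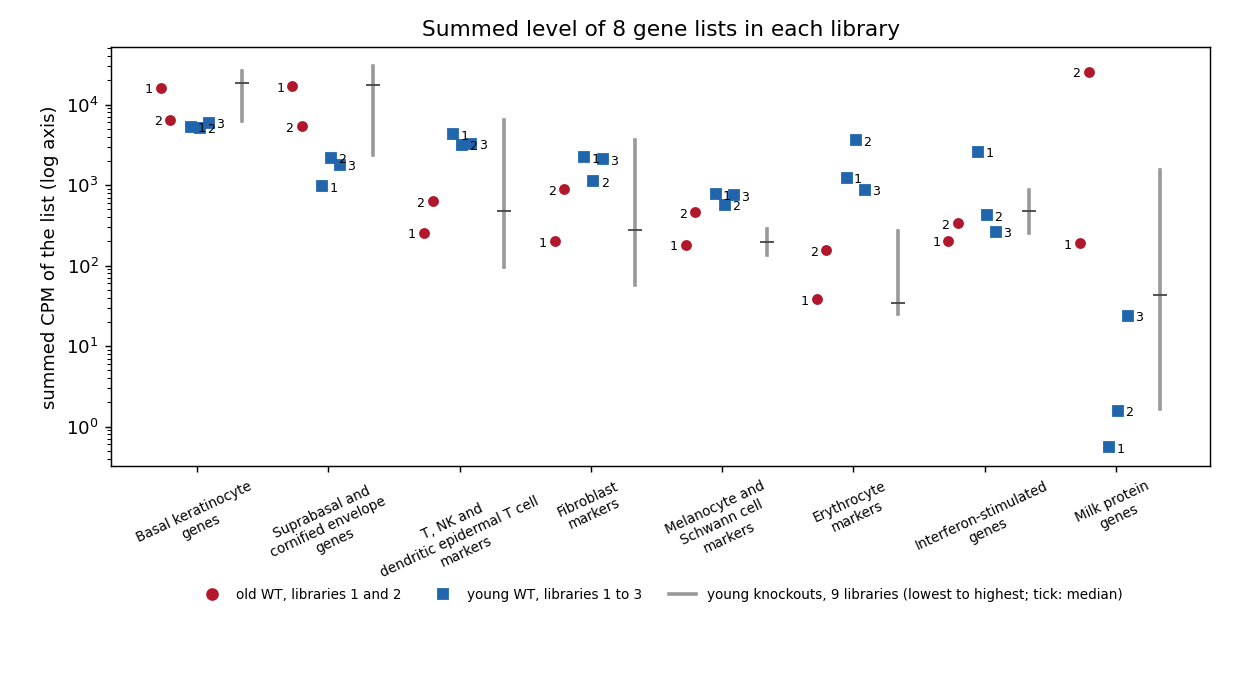
Summed CPM (log axis) of 8 gene lists in each WT library, numbered by replicate, with the range and median of the 9 young knockout libraries in grey. T cell, fibroblast, melanocyte and erythrocyte sums lie lower in both old libraries, and milk protein genes reach 25500 CPM in old 2 alone.

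With edgeR's quasi-likelihood test and Benjamini-Hochberg adjustment, 351 genes passed an adjusted p of 0.05, which is 1.99% of those tested. Of these, 305 were higher in old WT (1.73%) and 46 were lower (0.261%). The smallest adjusted p was 0.0181, and a further 1083 genes fell between 0.05 and 0.1. At an unadjusted p under 0.05 there were 4028 genes, of which 2426 were higher (13.8%) and 1602 lower (9.09%). Libraries of the 2 ages did not overlap for 40.4% of all tested genes, 18.9% higher in old WT and 21.4% lower. The count of calls rested on single libraries. It was 0 when young 1, young 2 or young 3 was left out, although 3169, 3147 and 3436 genes then had an unadjusted p under 0.05. It was 57 without old 2 and 434 without old 1. Calls numbered 102 by limma voom with quality weights and 2047 by DESeq2. With the 5 WT libraries alone the split turned round, at 34 higher and 95 lower, against 305 and 46.

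Some of the smallest p-values belonged to genes whose libraries barely varied within an age. They were chosen after their values were seen. Tjp3 encodes a scaffold protein of tight junctions (zonula occludens 3). It had 55.7 and 59.9 CPM in old WT, against 8.38, 11 and 8.92 CPM in young WT. Its log2 fold change was 2.64 (SE 0.33, adjusted p = 0.0181), and both old libraries lay far above every young library. Unc13b, a gene for a vesicle priming factor, had 46.2 and 45.9 CPM in old WT, against 4.41, 8.69 and 7.11 CPM in young WT (log2 fold change 2.79, SE 0.37, adjusted p = 0.0181). Rabep2, which encodes an endosomal Rab effector, had 58.9 and 51.9 CPM in old WT, against 25, 26.4 and 25.7 CPM in young WT (log2 fold change 1.13, SE 0.13, adjusted p = 0.0181). Acsl1 encodes an enzyme that activates long-chain fatty acids by joining them to coenzyme A. It had 184 and 185 CPM in old WT, against 23.8, 20.4 and 22.1 CPM in young WT (log2 fold change 3.08, SE 0.51, adjusted p = 0.0279). Old 1 and old 2 agreed closely for all 4 of these genes. Tjp3, Unc13b and Rabep2 stayed past the threshold without old 2 (adjusted p = 0.0487 for each), and Acsl1 did not. None of the 4 passed when a young library was left out. In the young knockouts the median level was 46.8 CPM for Tjp3, 19.2 for Unc13b, 33.5 for Rabep2 and 125 for Acsl1, in each case between the young and old WT levels.

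The 15 largest rises fell into 2 kinds. For 11 of the 15, old 2 exceeded old 1 more than 3 times over. For the other 4 (Cyp2g1, Skint6, Lama1 and Skint5), it did not. Among all 305 genes called higher, 46 had old 2 above 3 times old 1, and 17 had the reverse. Without old 2, none of the 15 passed the threshold, and without old 1, 12 did.

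Several of the first kind are known from secretory epithelia. Muc1, a mucin of the apical surface of glandular cells, had 2.41 and 74.5 CPM in old WT, against 0.882, 0.475 and 0.395 CPM in young WT (log2 fold change 6.05, SE 1.26, adjusted p = 0.0397). Atp2c2, a calcium pump of the secretory pathway, had 14.6 and 72.9 CPM in old WT, against 0.882, 1.63 and 1.64 CPM in young WT (log2 fold change 5.01, SE 0.74, adjusted p = 0.0233). Cel, the gene of bile salt-stimulated lipase, had 2.58 and 107 CPM in old WT, against 0.0551, 0.136 and 0.113 CPM in young WT (log2 fold change 9.02, SE 1.73, adjusted p = 0.0331). In each, old 2 was far above old 1, and old 1 above all young libraries. Myo5c, a myosin that moves secretory granules, had 9.65 and 88.1 CPM in old WT, against 0.276, 0.815 and 1.47 CPM in young WT. Slc28a3, a nucleoside transporter, had 5.16 and 111 CPM in old WT, against 0.496, 0.543 and 2.54 CPM in young WT. These genes moved with the milk protein genes in old 2, whose sum stood at 25500 CPM there and at 189 CPM in old 1. The part of that makeup was not tested.

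Other genes of this kind had almost no reads in young WT. Saa1, an acute-phase apolipoprotein gene, had 0.166 and 86.8 CPM in old WT, against 0, 0 and 0.0565 CPM in young WT. Only 1 count stood behind the young level, so the ratio of 2310 carries a 95% counting interval of 415 to 91500. Folr1, a folate receptor gene, had 0.665 and 61.3 CPM in old WT, against 0, 0 and 0.169 CPM in young WT, from 3 young counts (ratio 549, interval 187 to 2670). For both, old 1 lay close to the young libraries, and nearly all old reads came from old 2. Col9a1, a chain of collagen IX, had 2.99 and 199 CPM in old WT, against 0.11, 0.272 and 0.565 CPM in young WT. Cck, the gene of the peptide hormone cholecystokinin, had 2.99 and 117 CPM in old WT, against 0, 0.204 and 1.07 CPM in young WT. Cdhr1, a cadherin-related gene, had 1.16 and 29.9 CPM in old WT, against 0.331, 0.475 and 0.339 CPM in young WT. Igfals, whose product binds insulin-like growth factors in serum, had 2.58 and 22.7 CPM in old WT, against 0.276, 0.34 and 0.452 CPM in young WT. The groups did not overlap for any of these 4, with old 1 the nearer to young WT.

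The second kind was high in both old libraries. Lama1, which encodes the alpha 1 chain of basement membrane laminin, had 94.9 and 67.6 CPM in old WT, against 0.496, 1.83 and 6.32 CPM in young WT (log2 fold change 4.83, SE 0.84, adjusted p = 0.0313). Skint6 had 18.7 and 16.2 CPM in old WT, against 0.386, 0.747 and 0.678 CPM in young WT (log2 fold change 4.86, SE 0.97, adjusted p = 0.0351). Skint5 had 58.9 and 13.3 CPM in old WT, against 0.772, 1.49 and 1.64 CPM in young WT (log2 fold change 4.8, SE 0.98, adjusted p = 0.0372). Both belong to the mouse Skint family of immunoglobulin-like membrane proteins, whose founder Skint1 is needed for the dendritic epidermal T cells of the skin. The family's members are alike in sequence, and the counting could have split reads among them. Cyp2g1, a cytochrome P450 gene, had 23.9 and 25.2 CPM in old WT, against 0, 0 and 0.395 CPM in young WT (log2 fold change 7.43, SE 1.63, adjusted p = 0.0453). The young knockouts reached up to 49.8 CPM for Lama1, 18.5 for Skint6, 60 for Skint5 and 64.5 for Cyp2g1, so the old WT levels of the last 3 lay within or near the range of young mice of other genotypes.

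**Figure D2:**
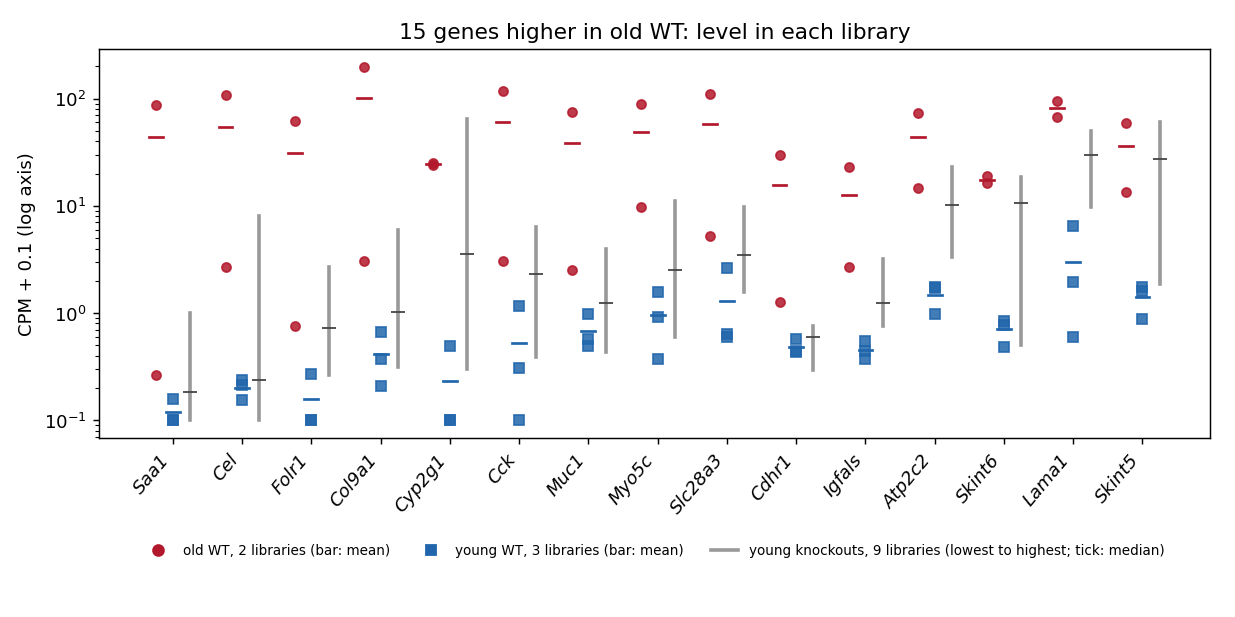
CPM plus 0.1 (log axis) of the 15 named genes higher in old WT, in 2 old and 3 young WT libraries with group means, beside the range of 9 young knockout libraries. Wide gaps between both old points mark the genes carried by old 2, such as Saa1 at 86.8 and 0.166 CPM, while Cyp2g1 and Skint6 have old points close together.

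Several of the 15 largest falls are genes of lymphocytes or melanocytes, and the summed markers of both cell types were lower in old WT as given above. Foxp3, the transcription factor of regulatory T cells, had 0.0832 and 0.0748 CPM in old WT, against 29.4, 33.4 and 13.5 CPM in young WT. Its 2 old counts give a ratio of 317 in favour of young WT, with an interval of 87.6 to 2620, and the fit gave an adjusted p of 0.0439. Ccr6, a chemokine receptor of T and B cells, had 0.0832 and 0.374 CPM in old WT, against 18, 23.6 and 19.5 CPM in young WT (log2 fold change -6.38, SE 1.44, adjusted p = 0.0479). Blk, a lymphocyte tyrosine kinase, had 0 and 0.0748 CPM in old WT, against 7.72, 6.79 and 2.31 CPM in young WT, from 1 old count (ratio 141, interval 25.1 to 5590). Stx11, a syntaxin used in the release of lymphocyte granules, had 2.08 and 2.92 CPM in old WT, against 27.4, 13.7 and 6.21 CPM in young WT. For each, old libraries lay below every young library. In the young knockouts the median was 0.209 CPM for Foxp3, 0.288 for Ccr6 and 0.217 for Blk, nearer old WT, with highest values of 18.4, 10.7 and 1.63 CPM. For Stx11 it was 13.8 CPM, within the range of young WT. Of the 34 tested T cell markers, Foxp3 alone passed (0.261% of all tested genes passed in this direction), and the list's median log2 fold change was -3.21, against 0.01 over all tested genes. The costimulatory receptor gene Icos had 0 and 0.15 CPM in old WT, against 28.7, 23.9 and 13.7 CPM in young WT (adjusted p = 0.0717).

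Dct encodes dopachrome tautomerase, an enzyme of melanin synthesis. It had 7.49 and 16.8 CPM in old WT, against 294, 214 and 273 CPM in young WT (log2 fold change -4.40, SE 1, adjusted p = 0.0483). Pax3, a transcription factor of the melanocyte lineage, had 0.832 and 0.673 CPM in old WT, against 31.2, 20.4 and 28.7 CPM in young WT (log2 fold change -5.12, SE 1, adjusted p = 0.0331). Other pigment genes pointed the same way without passing. Tyrp1 had 1.41 and 4.12 CPM in old WT, against 61.1, 35.2 and 79 CPM in young WT (adjusted p = 0.0519), and Pmel, a gene of melanosome fibrils, had 1.08 and 4.41 CPM in old WT, against 39, 26.2 and 38.5 CPM in young WT (adjusted p = 0.0669). Of the 16 tested melanocyte and Schwann cell markers, 13 had a negative and 3 a positive log2 fold change. In all, 12 were lower in both old libraries than in all young libraries, against 21.4% of all tested genes. The test called 1 of them (Dct), against 0.261% of all tested genes called lower. The young knockouts had a median of 40 CPM for Dct and 3.92 CPM for Pax3, below the young WT levels.

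The rest of the named falls have no single home. Col12a1, which encodes a collagen that binds to fibrils, had 22.9 and 21 CPM in old WT, against 156, 90.7 and 133 CPM in young WT (log2 fold change -2.51, SE 0.34, adjusted p = 0.0181). Unc5b, a netrin receptor gene, had 22.1 and 25.4 CPM in old WT, against 140, 114 and 117 CPM in young WT (log2 fold change -2.36, SE 0.54, adjusted p = 0.0488). F2r, the gene of the thrombin receptor PAR1, had 13.7 and 13 CPM in old WT, against 59.5, 58.1 and 59.5 CPM in young WT (log2 fold change -2.12, SE 0.42, adjusted p = 0.0351). The values within each age lay close together for Unc5b and F2r. Slc30a1, a zinc exporter gene, had 23.6 and 25.5 CPM in old WT, against 62.3, 134 and 135 CPM in young WT. Slc27a6, a fatty acid transporter gene, had 3.41 and 4.04 CPM in old WT, against 27.9, 33.2 and 27.7 CPM in young WT. Slc6a17, an amino acid transporter gene known from synaptic vesicles, had 0.333 and 0.299 CPM in old WT, against 13.7, 8.08 and 14.5 CPM in young WT. Fstl4, a follistatin-like gene, and Prkg2, a kinase activated by cyclic GMP, were also lower, with log2 fold changes of -5.23 (SE 1.09) and -4.59 (SE 1.02). In the young knockouts the median was 41.9 CPM for Col12a1, 38.9 for Unc5b, 22 for F2r and 40 for Slc30a1. It was 5.57 CPM for Slc27a6, 1.74 for Slc6a17 and 1.49 for Fstl4. Each of these lay between the WT ages and nearer old WT, and Prkg2, at 0.29 CPM, lay between both old libraries. Without old 2 none of the 15 passed, and without old 1 Slc6a17 and Col12a1 did.

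**Figure D3:**
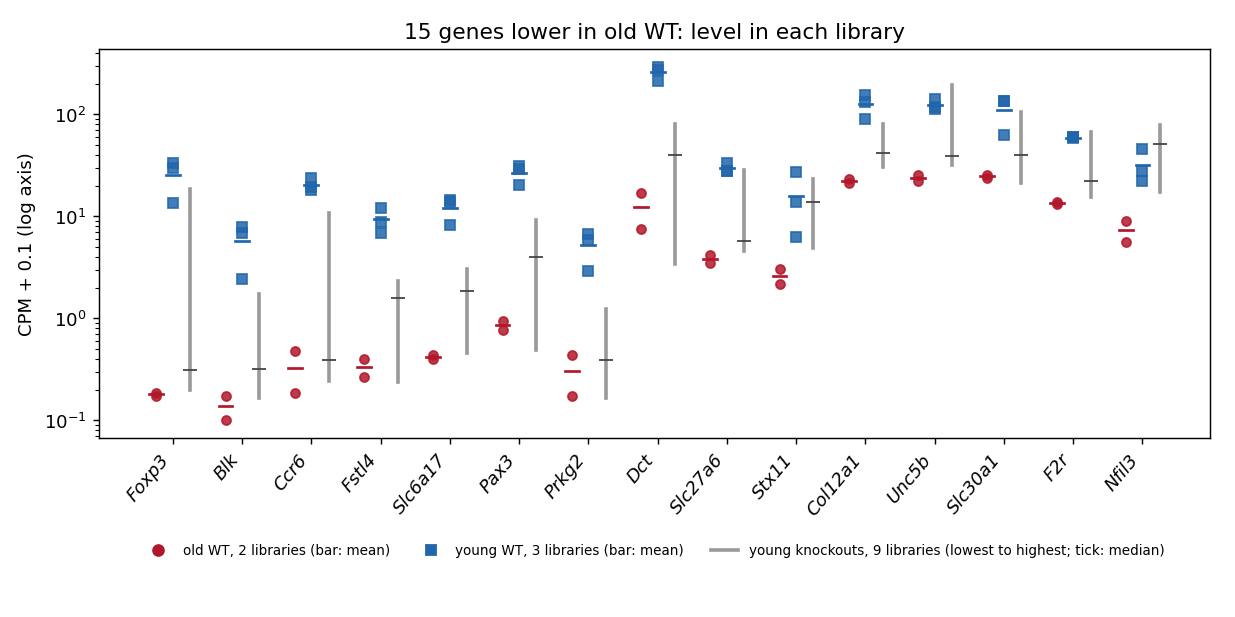
CPM plus 0.1 (log axis) of the 15 named genes lower in old WT, in 2 old and 3 young WT libraries with group means, beside the range of 9 young knockout libraries. No old point reaches a young point, from Foxp3 at 0.0748 to 0.0832 CPM in old WT to Col12a1 at 21 to 22.9 CPM.

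Of 34 tested adherens junction, tight junction and desmosome genes, 32 had a positive log2 fold change, and 27 did not overlap between ages with old WT higher, against 18.9% of all tested genes. The list's median was 1.47 (0.83 without old 1), against 0.01 for all genes. Its sum stood at 12800 and 5180 CPM in old WT, against 2310, 3950 and 3990 CPM in young WT. In the young knockouts the sum ran from 4320 to 20000 CPM, with a median of 14700 CPM, above both old libraries. In the test 1 member (Cgn) passed, against 1.73% of all tested genes called higher. Cgn encodes cingulin, a tight junction plaque protein. It had 74.6 and 129 CPM in old WT, against 2.76, 11.5 and 13.3 CPM in young WT (log2 fold change 3.50, SE 0.59, adjusted p = 0.0313). Cldn7, a claudin gene, lay just outside the threshold, with 3.49 and 18.4 CPM in old WT, against 0, 0.408 and 0.508 CPM in young WT (log2 fold change 5.17, SE 1.19). Epcam, a gene for an epithelial adhesion molecule that Langerhans cells also carry, had 116 and 330 CPM in old WT, against 21.3, 59.3 and 63.6 CPM in young WT (adjusted p = 0.0523). F11r, the gene of junctional adhesion molecule A, had 43.4 and 45.3 CPM in old WT, against 9.98, 16.3 and 20.5 CPM in young WT (adjusted p = 0.0595). The members with a negative sign were Ctnnb1 and Cdh3. Cdh1, the E-cadherin gene, chosen like these after its values were seen, overlapped at 446 and 274 CPM in old WT, against 249, 283 and 289 CPM in young WT.

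No suprabasal or cornified envelope gene passed the test, and the list held members of both signs. Krt10, a keratin of the first suprabasal cells, had 5250 and 1730 CPM in old WT, against 204, 552 and 407 CPM in young WT (log2 fold change 3.19, SE 0.83, adjusted p = 0.0632). Krt1 had 1700 and 695 CPM in old WT, against 126, 211 and 152 CPM in young WT (adjusted p = 0.0623), and Krt77 had 4530 and 1230 CPM in old WT, against 116, 396 and 343 CPM in young WT (adjusted p = 0.0618). Old 1 was highest for all 3, and no old library overlapped a young one. Krt2, another suprabasal keratin, went the other way at low levels, with 0.0832 and 0.0748 CPM in old WT, against 0.331, 2.85 and 0.339 CPM in young WT (adjusted p = 0.228). Ivl, the gene of the envelope protein involucrin, had 9.4 and 8.23 CPM in old WT, against 9.09, 30.7 and 28.7 CPM in young WT (adjusted p = 0.254). Krt2, Ivl and Lor were chosen after their values were seen. Lor, the gene of the envelope protein loricrin, was low in every library, with 1.25 and 0.449 CPM in old WT, against 0.827, 1.29 and 1.19 CPM in young WT. Of the 34 tested members, 25 had a positive and 9 a negative sign, with a median of 1.39. Without overlap, 20 were higher in old WT and 1 was lower, against 18.9% and 21.4% of all tested genes. At an unadjusted p under 0.05, 16 were higher and 1 was lower, against 13.8% and 9.09% of all tested genes. The summed list stood at 16800 and 5400 CPM in old WT, against 963, 2180 and 1790 CPM in young WT, and at 2370 to 29800 CPM in the young knockouts with a median of 17500 CPM.

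Basal genes had a median log2 fold change of 1.28 over 26 tested genes (0.73 without old 1), none of them called, and 22 had a positive sign. Itga6, the alpha 6 integrin of hemidesmosomes, had 176 and 245 CPM in old WT, against 44.7, 59.2 and 79 CPM in young WT (adjusted p = 0.064). Old WT lay above young WT without overlap, as it did for 13 of the 26, against 18.9% of all tested genes. The summed list stood at 16100 and 6480 CPM in old WT, against 5250, 5140 and 5950 CPM in young WT. In the young knockouts it ran from 6240 to 26300 CPM, with a median of 18400 CPM, above both old libraries. T cell, fibroblast and erythrocyte markers lay lower in old WT, and their part in the keratinocyte differences was not tested.

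Barrier lipid genes held 2 calls among 27 and sebaceous genes 1 among 24, all higher in old WT, as were 1.73% of all tested genes. Lipm, the gene of a lipase of the outer epidermis, had 76.9 and 59.5 CPM in old WT, against 2.48, 6.45 and 5.59 CPM in young WT (log2 fold change 3.84, SE 0.72, adjusted p = 0.0331). Abhd5, which encodes the activator of a triglyceride lipase and is mutated in a human ichthyosis, had 45.9 and 43.6 CPM in old WT, against 22.1, 16.8 and 14.1 CPM in young WT (log2 fold change 1.36, SE 0.31, adjusted p = 0.0471). Both old libraries exceeded all young ones for both genes. Sptlc3, a subunit of the first enzyme of ceramide synthesis, had 40 and 15.7 CPM in old WT, against 1.93, 5.43 and 2.82 CPM in young WT (adjusted p = 0.0568). Of 27 tested barrier lipid genes, 12 were higher without overlap and 2 were lower, against 18.9% and 21.4% of all tested genes. Their median was 1.47 (0.58 without old 1). Their sum stood at 1400 and 699 CPM in old WT, against 386, 482 and 414 CPM in young WT. In the young knockouts it ran from 548 to 2370 CPM, with a median of 1260 CPM, between both old libraries. Scd1, the desaturase of sebaceous and fat cells, had 400 and 1820 CPM in old WT, against 71.6, 174 and 140 CPM in young WT (log2 fold change 3.14, SE 0.69, adjusted p = 0.0462). The median of the sebaceous genes was 0.51, and 0.34 without old 2 and 0.24 without young 3.

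**Figure D4:**
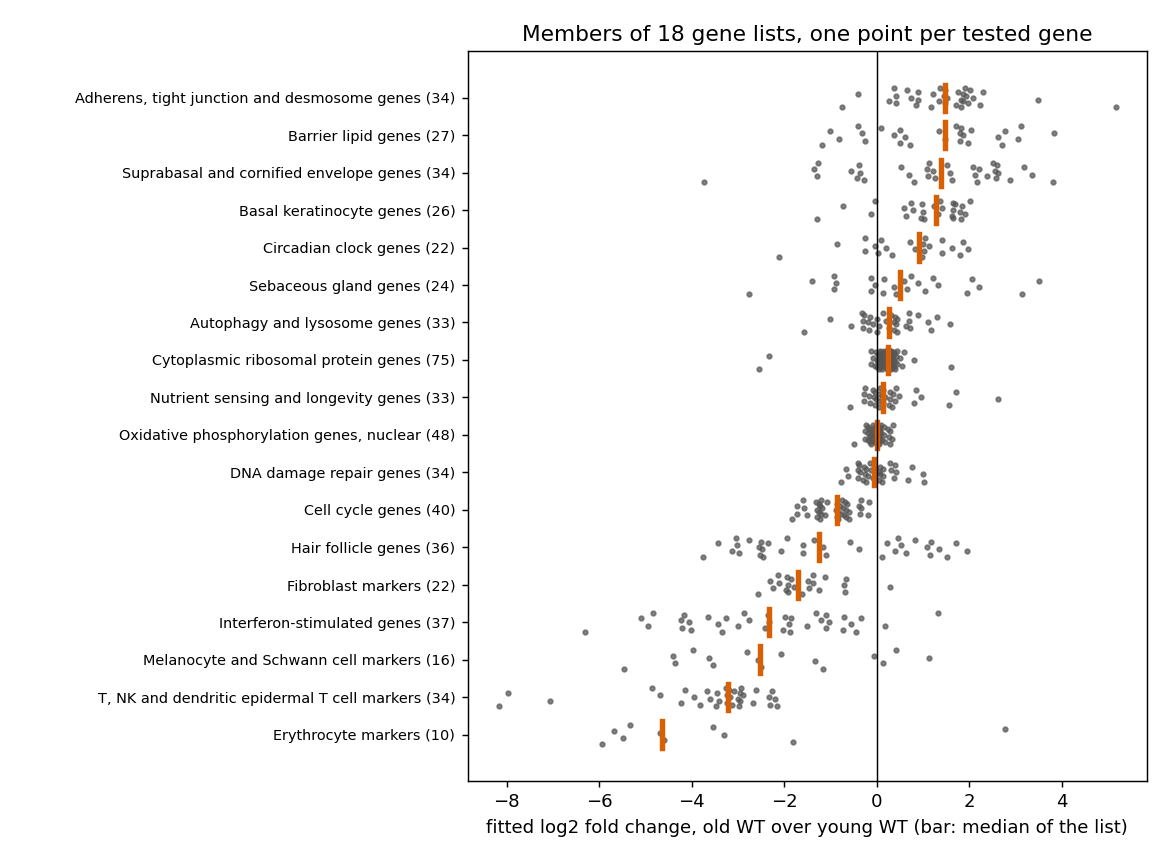
Fitted log2 fold change, old WT over young WT, for each tested gene of 18 lists (point) with the list's median (bar). Junction, barrier lipid, suprabasal and basal genes lie mostly to the right, with medians of 1.28 to 1.47, and T cell, erythrocyte, melanocyte and interferon genes to the left, with medians of -2.32 to -4.64.

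Hair follicle genes split into opposite directions. Tcf7l2, a transcription factor of Wnt signalling, was the 1 member called, higher in old WT as were 1.73% of all tested genes. It had 54.7 and 116 CPM in old WT, against 23.9, 17.5 and 26.1 CPM in young WT (log2 fold change 1.95, SE 0.38, adjusted p = 0.0331). Sox9, a factor of follicle stem cells, had 77 and 80.9 CPM in old WT, against 23.7, 28.7 and 31.6 CPM in young WT (adjusted p = 0.0791). Vdr, the vitamin D receptor gene, had 110 and 115 CPM in old WT, against 26.3, 45.4 and 62.1 CPM in young WT (adjusted p = 0.0618). Keratins of the growing hair's inner root sheath lay lower, though none passed. Krt71, chosen after its values were seen like the next 2 genes, had 22.1 and 32.3 CPM in old WT, against 109, 252 and 200 CPM in young WT (log2 fold change -2.75, SE 1.12, adjusted p = 0.175). Krt25 had 14.6 and 22.7 CPM in old WT, against 84.4, 220 and 143 CPM in young WT (adjusted p = 0.145). Dlx3, a homeobox gene of hair and epidermal differentiation, had 7.98 and 8.46 CPM in old WT, against 29.4, 113 and 126 CPM in young WT (adjusted p = 0.101). Young 1 was the lowest young library for all 3. In the young knockouts the median was 60.5 CPM for Krt71, 42.4 for Krt25, 15 for Dlx3 and 30.1 for Tcf7l2, each between the WT ages. It was 84.2 CPM for Sox9 and 145 for Vdr, above both old libraries. In the list of 36, 14 genes were lower and 6 higher without overlap, against 21.4% and 18.9% of all tested genes. The median was -1.25, and -2.06 without old 2.

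Wnt pathway genes had no call among 38, and their median of 0.05 was -0.52 without old 1 and -0.14 without young 1. Lef1 and Tcf7, transcription factors of the pathway that T cells also use, lay lower in old WT. T cell markers lay lower too, and their part was not tested. Lef1 had 7.4 and 6.44 CPM in old WT, against 55.9, 100 and 58.9 CPM in young WT (adjusted p = 0.07). Tcf7 had 18.5 and 18.3 CPM in old WT, against 142, 126 and 122 CPM in young WT (adjusted p = 0.0967). Lrp5, a coreceptor of Wnt ligands, had 112 and 117 CPM in old WT, against 46.1, 49.5 and 57.7 CPM in young WT (adjusted p = 0.0575). In the young knockouts the median was 6.55 CPM for Lef1 (1.96 to 52.8) and 17.6 CPM for Tcf7 (10.4 to 199), close to old WT. That of Lrp5 was 122 CPM, above both old libraries. Notch pathway genes also held no call among 22. Its receptor gene Notch3 had 162 and 98.8 CPM in old WT, against 19.9, 45.1 and 41.2 CPM in young WT (adjusted p = 0.0623). Lfng, which encodes a glycosyltransferase that modifies Notch, had 10.6 and 12 CPM in old WT, against 54.2, 39.3 and 39.5 CPM in young WT (adjusted p = 0.0655).

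In the TGF-beta and BMP list of 35 genes, a ligand and a target were called in opposite directions. Of all tested genes, 1.73% were called higher and 0.261% lower. Tgfb3, the ligand, had 29.2 and 428 CPM in old WT, against 8.49, 8.22 and 16.5 CPM in young WT (log2 fold change 4.40, SE 0.88, adjusted p = 0.0351), with old 2 far above old 1. Id3, a target gene of BMP signalling that holds back differentiation factors, had 5.57 and 6.96 CPM in old WT, against 14.9, 31.1 and 24.7 CPM in young WT (log2 fold change -1.88, SE 0.36, adjusted p = 0.0331). Smad7, an inhibitor of the pathway, had 21.2 and 23.6 CPM in old WT, against 85.3, 105 and 62.7 CPM in young WT (adjusted p = 0.0789). Bmpr1b, a BMP receptor gene, had 3.41 and 2.84 CPM in old WT, against 0.386, 0.204 and 0.339 CPM in young WT (adjusted p = 0.0631). The list of 35 had a median of -0.08, and -0.23 without old 1.

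Cd44, the hyaluronan receptor gene, was the 1 called member of the mesenchymal list, against 0.261% of all tested genes called lower. It is carried by both keratinocytes and T cells, and the part of each was not tested. It had 115 and 95.1 CPM in old WT, against 476, 313 and 292 CPM in young WT (log2 fold change -1.76, SE 0.31, adjusted p = 0.033). Of the 30 tested genes of that list, 13 were lower and 1 higher without overlap, against 21.4% and 18.9% of all tested genes. Fibroblast markers were lower in old WT too, as given above, and their part was not tested. In the young knockouts Cd44 had a median of 296 CPM, within the range of young WT.

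All 40 tested cell cycle genes had negative log2 fold changes, from -0.16 to -1.83, with a median of -0.86. Of all tested genes 0.261% were called lower, and here the 1 called member was Pcna, the sliding clamp of DNA replication. It had 17.9 and 15.4 CPM in old WT, against 37.3, 35.9 and 44.9 CPM in young WT (log2 fold change -1.22, SE 0.26, adjusted p = 0.0435). Cenpa, the centromeric histone gene, had 4.49 and 3.22 CPM in old WT, against 11.2, 14.2 and 9.54 CPM in young WT (adjusted p = 0.0549). Kif23, a mitotic kinesin gene, had 10.4 and 5.76 CPM in old WT, against 23.4, 19.2 and 17.2 CPM in young WT (adjusted p = 0.0634). Birc5, the survivin gene, had 1.66 and 1.87 CPM in old WT, against 2.92, 6.05 and 7.23 CPM in young WT (adjusted p = 0.0799). These lay lower in old WT without overlap, as did 14 of the 40 in all, against 21.4% of tested genes. The proliferation marker Mki67, chosen after its values were seen, overlapped through young 1. It had 103 and 59.3 CPM in old WT, against 72.6, 173 and 179 CPM in young WT. The summed list stood at 570 and 365 CPM in old WT, against 511, 944 and 1050 CPM in young WT, and at a median of 645 CPM in the young knockouts. T cell markers also lay lower in old WT, and their part in this difference was not tested.

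Genes of senescence and its secretions held no call. Of 33 tested genes, 15 had positive and 18 negative log2 fold changes. Cdkn2a, the locus of the senescence marker p16, had 0.166 and 1.65 CPM in old WT, against 0.11, 0.0679 and 0 CPM in young WT (adjusted p = 0.141). It rested on 24 counts in old WT and 3 in young WT, a ratio of 15.9 with an interval of 4.84 to 82.7. Lmnb1, the lamin B1 gene known to fall in senescent cells, had 39.4 and 26.3 CPM in old WT, against 108, 99.5 and 80.3 CPM in young WT (adjusted p = 0.0668). In the young knockouts Lmnb1 had a median of 35.8 CPM (25.8 to 106) and Cdkn2a one of 0.435 CPM (0 to 2.89). Both medians lay between the old libraries. Igfbp5, a secreted growth factor binding protein, had 157 and 5300 CPM in old WT, against 192, 161 and 269 CPM in young WT, so its excess lay in old 2. Il1b, the interleukin 1 beta gene, had 0.166 and 1.05 CPM in old WT, against 72.3, 8.49 and 2.71 CPM in young WT (adjusted p = 0.117). Targets of p53 (28 genes) and DNA damage repair genes (34 genes) held no call. Their medians of -0.1 and -0.06 changed sign without old 2, to 0.12 and 0.06, and that of the repair genes also without young 3, to 0.07.

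Interferon-stimulated genes were highest in young 1. The list of 38 summed to 204 and 334 CPM in old WT, against 2610, 421 and 262 CPM in young WT. Rsad2, the antiviral viperin gene, had 0.582 and 2.32 CPM in old WT, against 325, 26.6 and 1.92 CPM in young WT, so old 2 and young 3 overlapped. Of 37 tested genes 35 had a negative sign, but only 6 were lower without overlap, a share below the 21.4% of all genes. The median log2 fold change was -2.32, and -0.55 without young 1. Ifi27 was the 1 call, and it was higher in old WT, as were 1.73% of all tested genes. It had 18.1 and 17.1 CPM in old WT, against 6.72, 7.68 and 6.89 CPM in young WT (log2 fold change 1.33, SE 0.28, adjusted p = 0.0398).

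Cytokine and chemokine genes also went both ways, with 2 of 34 called, both higher in old WT, against 1.73% of all tested genes. Ccl27a, a chemokine of keratinocytes that draws T cells to skin, had 32.5 and 9.05 CPM in old WT, against 0.772, 1.56 and 2.88 CPM in young WT (log2 fold change 3.59, SE 0.77, adjusted p = 0.0441). Cx3cl1, a membrane-bound chemokine gene, had 17.3 and 26.9 CPM in old WT, against 5.02, 5.57 and 9.94 CPM in young WT (log2 fold change 1.72, SE 0.35, adjusted p = 0.036). Osm, a cytokine gene of leukocytes, had 0.0832 and 0.224 CPM in old WT, against 22.5, 2.65 and 1.07 CPM in young WT (adjusted p = 0.0789). In the young knockouts Ccl27a had a median of 42.1 CPM, above both old libraries, and Cx3cl1 one of 25.2 CPM, between them.

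The circadian clock list held 3 calls among 22 genes, against 1.99% of all tested genes. The clock's negative arm consists of the Per and Cry genes, and its D-box arm of the activators Dbp, Tef and Hlf and the repressor Nfil3, which bind the same DNA motif. Per3 had 80.6 and 70.5 CPM in old WT, against 18.5, 19.5 and 25.3 CPM in young WT (log2 fold change 1.86, SE 0.37, adjusted p = 0.0354). Cry2 had 61.7 and 29.9 CPM in old WT, against 18.5, 14.7 and 18.5 CPM in young WT (log2 fold change 1.42, SE 0.32, adjusted p = 0.0485). Nfil3 had 5.49 and 8.98 CPM in old WT, against 45.5, 27.8 and 22.1 CPM in young WT (log2 fold change -2.11, SE 0.43, adjusted p = 0.036). Both old libraries stood apart from all 3 young ones for each. Nfil3 is also a factor of NK and other lymphoid cells. Their markers were lower in old WT, and their part in its level was not tested.

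The activators had positive log2 fold changes and did not pass. Of the genes in this paragraph, all but Hlf were chosen after their values were seen. Hlf had 84.4 and 53.7 CPM in old WT, against 21.1, 23.1 and 23.2 CPM in young WT (log2 fold change 1.64, SE 0.38, adjusted p = 0.0501). Dbp had 68 and 42.4 CPM in old WT, against 28.6, 21.5 and 32.6 CPM in young WT, and Tef had 158 and 81.9 CPM in old WT, against 59.5, 52.6 and 71 CPM in young WT. The core activators Clock and Arntl overlapped between ages, Clock at 54.2 and 36.4 CPM in old WT, against 43.5, 39.1 and 36.6 CPM in young WT. In all, 11 of the 22 were higher in old WT and 2 lower without overlap, against 18.9% and 21.4% of all tested genes, and the median was 0.91 (0.49 without old 1). The labels do not give the hour of collection. The young knockouts had a median of 48.4 CPM for Per3, between the WT ages, 53.6 CPM for Cry2, between both old libraries, and 51.1 CPM for Nfil3, above all WT libraries.

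**Figure D5:**
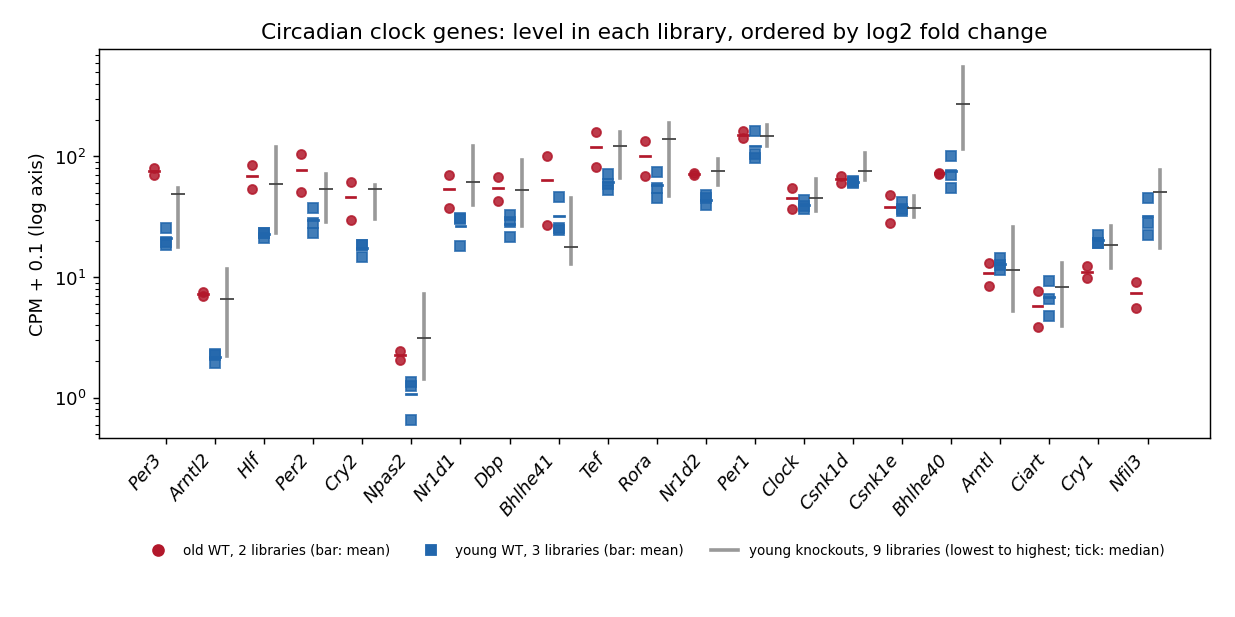
CPM plus 0.1 (log axis) of circadian clock genes in 2 old and 3 young WT libraries with group means, ordered from the highest to the lowest log2 fold change, beside the range of 9 young knockout libraries. Per3 and Hlf lie higher in both old libraries, Nfil3 lower, and Clock and Arntl overlap.

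The promoters of Per3 and Per1 are shown as a description of the motif of the D-box arm. Per3 was chosen for its call and its matches, and Per1 for its matches. Any part of Nfil3 in the level of either gene was not tested. The 250 bases before each start site were taken from RefSeq (GRCm38.p6), where 18 of the 22 genes had an entry. The D-box was searched as TTATGTAA or TTATGCAA and the E-box, the motif of Clock and Arntl, as CACGTG, on both strands. A D-box was found in Per3 and Per1 alone, and in 1.5% of all 32851 windows of that length. An E-box was found in Bhlhe41, Ciart, Cry1, Per1 and Tef, and in 6.02% of all windows. A clock gene was counted if any of its windows matched, while the shares count single windows, so they are not directly comparable. The motifs do not overlap each other here. Per3 lies on the minus strand at chr4:151044666-151044915, with matches 205 and 158 bases before the start. Per1 lies on the plus strand at chr11:69098699-69098948, in the first of its windows, with an E-box 166 bases and a D-box 24 bases before the start. Capitals mark the matches.
Per3: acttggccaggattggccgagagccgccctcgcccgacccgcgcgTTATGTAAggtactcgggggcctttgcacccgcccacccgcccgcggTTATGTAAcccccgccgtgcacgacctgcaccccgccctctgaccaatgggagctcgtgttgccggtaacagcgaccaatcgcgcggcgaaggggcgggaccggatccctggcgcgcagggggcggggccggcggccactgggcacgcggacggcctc
Per1: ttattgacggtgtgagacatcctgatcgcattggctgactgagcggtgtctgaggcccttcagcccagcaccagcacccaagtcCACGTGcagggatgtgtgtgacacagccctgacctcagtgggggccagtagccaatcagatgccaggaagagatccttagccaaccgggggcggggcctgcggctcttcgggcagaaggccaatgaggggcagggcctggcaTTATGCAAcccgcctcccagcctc
Both hold D-boxes, and Per1 did not pass the test. Per1, named for its promoter after its values were seen, had 141 and 162 CPM in old WT, against 164, 96.9 and 104 CPM in young WT (log2 fold change 0.33, SE 0.24, adjusted p = 0.44), while Per3 differed without overlap. A match is a description of these letters only.

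Nutrient sensing genes included 2 calls among 33, both higher in old WT, against 1.73% of all tested genes. Irs1, the adaptor of the insulin receptor, had 53.6 and 76.6 CPM in old WT, against 19.2, 21.6 and 26.5 CPM in young WT (log2 fold change 1.56, SE 0.27, adjusted p = 0.0313). Prkaa2, a catalytic subunit of the energy sensor AMPK, had 9.73 and 21.1 CPM in old WT, against 1.98, 2.51 and 3.11 CPM in young WT (log2 fold change 2.63, SE 0.51, adjusted p = 0.0331). Insr, the receptor itself, had 47.9 and 70.9 CPM in old WT, against 35.6, 27.7 and 29.1 CPM in young WT (adjusted p = 0.0635). Ulk1, the kinase that starts autophagy, was the 1 call among 33 autophagy and lysosome genes, against the same 1.73%, with 64.9 and 87.7 CPM in old WT, against 34.3, 35.3 and 32.9 CPM in young WT (log2 fold change 1.18, SE 0.26, adjusted p = 0.0468). All 4 lay higher in both old libraries. Mtor and Sirt1, shown as widely studied sensors and chosen after their values were seen, lay closer together. Mtor had 65.7 and 61.1 CPM in old WT, against 51.4, 58.4 and 50.4 CPM in young WT, and Sirt1 had 33.5 and 20.7 CPM in old WT, against 33.3, 34.3 and 31.1 CPM in young WT. The median of the nutrient list was 0.13, and 0.08 to 0.21 with 1 WT library left out.

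Single stress and metabolic genes were also called, at 1 member each of the heat shock, glutathione and glycolysis lists of 30, 31 and 20 genes, against 1.73% of all tested genes. Hspa1a, an inducible heat shock protein gene, had 242 and 227 CPM in old WT, against 85.2, 76.1 and 74.4 CPM in young WT (log2 fold change 1.60, SE 0.35, adjusted p = 0.0453). Its near-identical neighbour Hspa1b had 577 and 391 CPM in old WT, against 175, 192 and 173 CPM in young WT (adjusted p = 0.0537), and reads of the pair could have been split between them. The young knockouts had a median of 348 CPM for Hspa1a, above old WT. Gsta3, a glutathione transferase gene, had 4.16 and 8.9 CPM in old WT, against 0.276, 0.272 and 0.621 CPM in young WT (log2 fold change 4.06, SE 0.73, adjusted p = 0.033), and its relative Gsta2 had 8.9 and 4.27 CPM in old WT, against 0.496, 1.09 and 0.565 CPM in young WT (adjusted p = 0.0553). Aldoc, a glycolytic aldolase gene, had 15.9 and 67.6 CPM in old WT, against 7.66, 5.03 and 7.96 CPM in young WT (log2 fold change 2.62, SE 0.49, adjusted p = 0.0331). The medians of these lists were -0.05, 0.09 and 0.05. With 1 WT library left out they ran from -0.1 to 0.02, from -0.38 to 0.36 and from -0.23 to 0.28, the lowest of each without old 2. The 48 nuclear genes of oxidative phosphorylation spanned -0.5 to 0.36 with none called, and the 13 mitochondrial messenger RNAs had a median of 0.23, which was -0.07 without young 1 and 0.65 without young 3, also with none called. Of 75 cytoplasmic ribosomal protein genes, 68 had a positive sign, with a median of 0.24 (0.14 without young 1) and none called.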

How the data were processed

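Bulk RNA of sorted epidermal cells was measured. The estimated counts deposited by the authors, 1 table of 51123 Ensembl genes in 20 libraries, were already whole numbers and had not been normalised. Among the tools, Salmon 0.13.1 is listed in the submitters' processing notes beside DESeq2 1.28.1, FastQC 0.11.5 and Trim Galore 0.4.1, and the build is mm39. No source says how transcripts were summed to genes. Estimation splits reads between near-identical genes. Symbols were found for 48246 genes in a GENCODE annotation of another build, used for names alone. The 2877 identifiers with no symbol took 3.74% to 12% of a library's counts and stayed in the tests. Mitochondrial ribosomal RNA took 38.9% and 29.3% of the counts in old WT, against 23.3%, 33.1% and 38.9% in young WT.

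The 14 epidermis libraries were fitted in R 4.3.3 by the quasi-likelihood method of edgeR 4.0.16, after its default filter on low counts (filterByExpr) and TMM scaling (9 residual degrees of freedom), with the contrast old WT minus young WT and Benjamini-Hochberg adjustment at 0.05 over all tested genes. The labels call the libraries biological replicates. CPM are from TMM scaling of all 20 libraries. Ratios on few counts carry 95% exact conditional intervals, and they cover counting error only. Standard errors (SE) are the log2 fold change divided by the root of F.

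Genes were named if they had an official symbol and passed the threshold without overlap of the ages and with a mean of at least 5 CPM in the higher group. Predicted genes, antigen receptor genes, small RNAs, and mitochondrial or ribosomal protein genes were not eligible. Named were the 15 largest log2 fold changes each way, up to 4 members of each list by p, and Wwox, Trp53, Krt5, Krt14, Krt1, Krt10 and Cdkn2a. The comparison, its 41 gene lists and the tests were chosen with earlier results of these data known. The lists are described by counts and medians, with no test. Their 7 symbols that the table does not hold were not used. Some members of the lists are counted but not reported here by name.

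Alternatives were a replicate block, RLE and TMMwsp scaling, removal of mitochondrial genes, other filters, DESeq2 1.42.0, limma 3.58.1, a robust prior, other sets of libraries, testing against a minimum log2 change of 1, and each WT library left out. An adjusted p under 0.1 was added after seeing the data. The fit was also run on simulated counts with known fold changes. Their libraries did not differ in makeup, so that run checks the code and not the calls made here. Deviations from the group means correlated at -0.33 and -0.35 between same-numbered libraries. With 2 old libraries their deviations mirror each other, so these values cannot decide whether replicate numbers pair the samples.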

Additional observations from a re-analysis of the deposited data

How the results depend on the processing

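Counts of genes past the threshold are given as total, higher in old WT and lower in old WT, against 351, 305 and 46. They were 0, 0 and 0 with the replicate number as a block (2941 genes at an unadjusted p under 0.05). Whether the replicate numbers pair the samples could not be decided. The counts were also 0, 0 and 0 against a minimum log2 change of 1 (1555 genes unadjusted). They were 1068, 834 and 234 with no filter on low counts, 441, 364 and 77 at a minimum of 10 CPM, 513, 463 and 50 without mitochondrial genes, 2047, 1350 and 697 by DESeq2, 102, 97 and 5 by limma voom with quality weights, 129, 34 and 95 with the 5 WT libraries alone, 154, 140 and 14 with all 20 libraries, and 1128, 839 and 289 with 11 libraries, leaving out the 3 knockouts that went against their labels. RLE scaling, TMMwsp scaling and a robust prior moved no count by more than 1.5 times. Leaving out each WT library in turn gave 0 to 434 in total, 0 to 401 higher and 0 to 33 lower. At an adjusted p under 0.1, chosen after seeing the data, the counts were 1434, 1076 and 358. At that level they were 802, 679 and 123 without old 1, 940, 781 and 159 without old 2, 33, 23 and 10 without young 1, 1, 0 and 1 without young 2, and 436, 329 and 107 without young 3. The log2 fold change of Trp53, -0.18, was 0.15 with the replicate block and 0.02 without old 2, and -0.42 without old 1. That of Igfbp5, 3.75, was -0.4 without old 2 and 4.7 without old 1. The cause of these shifts was not tested. With 2 old libraries, leaving one out leaves a lone library assumed to vary like the other groups. Genes with few counts in an age, such as Saa1, Foxp3 and Blk, are limited by depth.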

Other observations

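Several further genes were far higher in old 2 than in old 1. Krt8, a keratin of simple epithelia and Merkel cells, had 52 and 255 CPM in old WT, against 0.717, 7.13 and 11.1 CPM in young WT (edgeR adjusted p = 0.0623). Its partner Krt18 had 49.9 and 353 CPM in old WT, against 0.496, 7.06 and 18.2 CPM in young WT (edgeR adjusted p = 0.0777). Lcn2, the gene of the antimicrobial lipocalin, had 23.8 and 1050 CPM in old WT, against 8.98, 3.12 and 24.2 CPM in young WT (edgeR adjusted p = 0.0632). Mfge8, the gene of a milk fat globule protein, had 79.8 and 2590 CPM in old WT, against 35.6, 32 and 99.3 CPM in young WT (edgeR adjusted p = 0.0601). For Lcn2 and Mfge8, old 1 lay among the young libraries. Macrophage, monocyte and neutrophil markers summed to 35.3 and 1240 CPM in old WT, against 2120, 293 and 352 CPM in young WT. Milk protein genes were high in old 2 as well, and their part in these values was not tested.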
